A study of Mus musculus with 12 samples.

Results

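Cadherins are the calcium-dependent adhesion proteins that hold epithelial cells together, and 6 members of the family were followed here through the epithelial gates of the mouse prostate: the protocadherins Pcdh7 and Pcdh1, the classical cadherins Cdh1 (E-cadherin), Cdh2 (N-cadherin) and Cdh3 (P-cadherin), and the atypical cadherin Cdh13 (T-cadherin). The genes were listed by name, with earlier results of these data known. Each was read from its brightest probe set with a single gene symbol. All 6 had such a probe set, out of 22180 genes that did, and all 6 were among the 20135 genes bright enough to be tested. Pcdh7 was selected on the same log2 signals, for its difference between the gates in an earlier look at them, so its gate differences are given as a description with no test.

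The study profiled RNA on 12 arrays. The mice were wild-type, hormone-naïve males with no transgene or treatment named, and the cells were prostate epithelium. Cells negative for the lineage markers CD45, CD31 and Ter119 were sorted on Sca1 and CD49f into a luminal gate (Sca1-low, CD49f-low), a Sca1-high gate (CD49f-positive) and a basal gate (Sca1-intermediate, CD49f-positive). Each gate was divided by LY6D, a surface protein of the Ly6 family, into LY6D+ and LY6D- cells, which gave 6 groups of 2 arrays. The luminal arrays came from mice 4 and 5, the Sca1-high arrays from mice 1 and 5 and the basal arrays from mice 3 and 5, so that mouse 5 gave 6 of the 12 arrays. Ages were not given in the sources used here. Each gate value below is a mean ± SD over 4 arrays of 2 mice (n = 4), each group has n = 2, and each difference is in log2 signal ± its moderated standard error from limma. These errors and p-values rest on the spread between the 2 mice within each group. Arrays of a mouse were treated as independent. Gate comparisons therefore count 4 arrays of 2 mice as 4, and LY6D comparisons leave the pairing by mouse out.

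A classical cadherin binds the same cadherin on the neighbouring cell through its extracellular domains, while its cytoplasmic tail holds beta-catenin and p120-catenin, and alpha-catenin joins this complex to actin. Cdh1 is the main cadherin of adherens junctions in simple and stratified epithelia, Cdh3 is typical of basal layers, and Cdh2 is best known from neural and mesenchymal cells. Cdh13 has no cytoplasmic tail, is tethered to the membrane by a lipid anchor and binds adiponectin. Pcdh1 and Pcdh7 are non-clustered protocadherins, whose tails bind no beta-catenin. In the prostate, a layer of basal cells lies beneath the secretory luminal cells. In bulk samples such as these, fewer cells of a type and less RNA per cell cannot be told apart.

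The labels were checked against marker genes. The mean signal over 8 basal epithelial markers (Krt14, Krt15, Krt17, Trp63, Itga6, Itgb4, Col17a1, Lama3) was 7.62 to 8.84 on the basal arrays, 6.62 to 7.48 on the Sca1-high arrays and 5.28 to 7.33 on the luminal arrays. Of the 8, 1 (Col17a1) was called higher in the basal than in the luminal gate, where 0.139% of all genes were. The mean over 6 luminal epithelial markers was 8.10 to 8.85 on luminal, 7.21 to 8.06 on basal and 6.06 to 7.72 on Sca1-high arrays. Markers of cells that the sort should have removed also differed. The mean over 8 myeloid markers was 6.93 to 8.61 in the luminal gate against 4.16 to 4.93 in the basal gate, and 4 of 8 (Cd68, Adgre1, Mrc1, Ctss) were called lower in the basal gate, where 0.278% of all genes were. The mean over 12 endothelial markers was 5.32 to 6.74 in the Sca1-high gate, 4.15 to 4.60 in the luminal gate, and in the basal gate 4.28 and 4.40 on the LY6D+ arrays but 6.15 and 6.17 on the LY6D- arrays. Array medians over all probe sets were 3.76 to 3.99, and no detection call was made. A list mean therefore does not show whether cells of a type were present on an array. The part of these lists in the results below was not tested.

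A pair of libraries needs naming before the results. In the Sca1-high gate of mouse 5, the transcript of the sort protein ran against the labels: Ly6d read 4.70 for cells labelled LY6D+ and 7.37 for cells labelled LY6D-. The first of these libraries also had the lowest median correlation with the other arrays (r = 0.807 across genes). Ly6d was also lower under the LY6D+ label for luminal cells of mouse 4 (4.81 against 5.11) and basal cells of mouse 5 (5.96 against 6.03), and higher under it in the other 3 pairs. LY6D+ and LY6D- below are the labels of the sorted cells.

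Pcdh7 encodes a protocadherin whose long cytoplasmic forms bind a catalytic subunit of protein phosphatase and which also binds the phosphatase inhibitor Set. In the luminal gate its log2 signal was 3.09 and 2.88 on the LY6D+ arrays of mice 4 and 5 and 3.32 and 2.82 on the LY6D- arrays of the same mice. In the Sca1-high gate it was 3.15 and 2.50 on the LY6D+ arrays of mice 1 and 5 and 3.07 and 3.15 on the LY6D- arrays. In the basal gate it was 5.83 and 6.38 on the LY6D+ arrays of mice 3 and 5 and 5.72 and 6.63 on the LY6D- arrays. The lowest basal array therefore lay above the highest array of either other gate, whereas luminal and Sca1-high arrays overlapped.

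The gate means of Pcdh7 were 6.14 ± 0.44 (basal), 3.03 ± 0.23 (luminal) and 2.97 ± 0.31 (Sca1-high). Basal signal stood 3.11 ± 0.27 above luminal signal, 8.63-fold, and Sca1-high signal stood 3.17 below basal signal, a difference of -3.17 ± 0.27 or 9.01-fold. Luminal and Sca1-high means differed by -0.06, and their arrays overlapped. The signals of both these gates lay near the lower quartile of the table (2.98), which 2 of 4 luminal and 3 of 4 Sca1-high arrays exceeded, against 4 of 4 basal arrays.

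**Figure D1:**
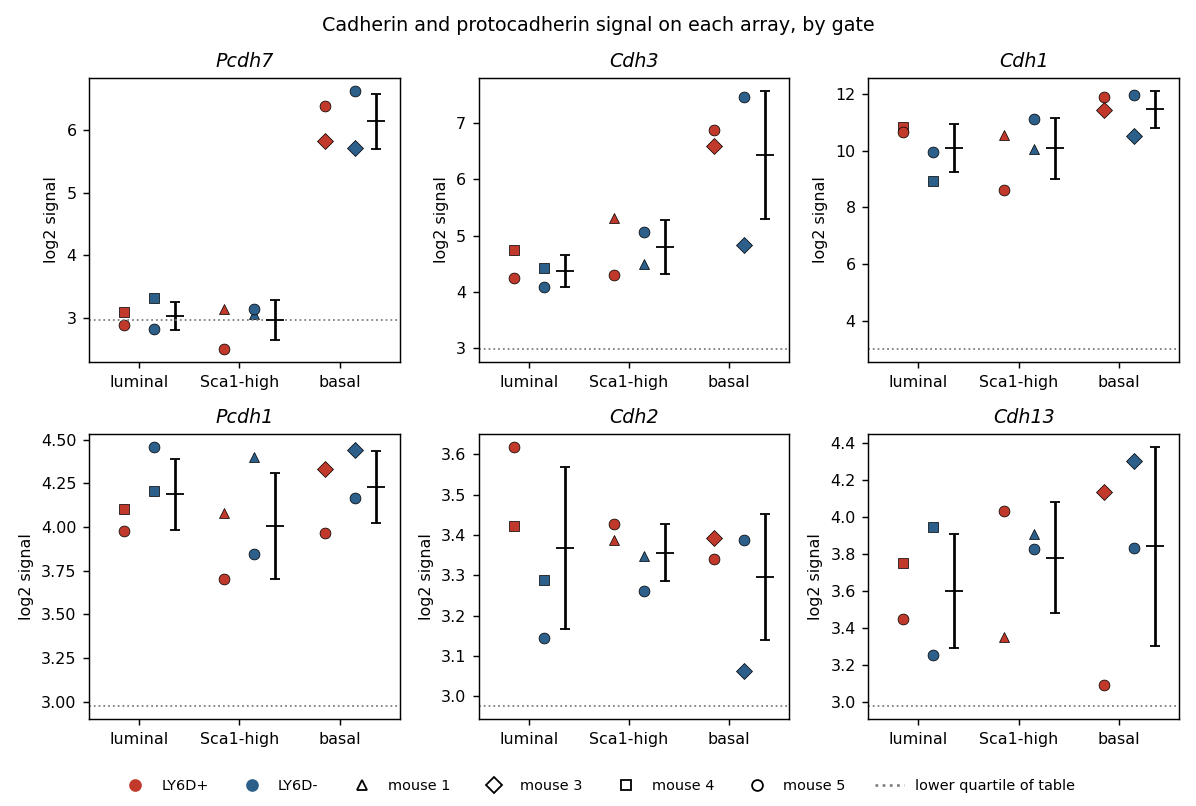
Log2 signal of each of the 6 genes (vertical axis, own scale in each panel) on the 12 arrays, by gate; colour gives the LY6D class, shape the mouse, the black bar the gate mean ± SD (n = 4) and the dotted line the lower quartile of the table (2.98). The 4 basal arrays of Pcdh7 (5.72 to 6.63) lie above all 8 others (2.50 to 3.32), whereas the gates of Pcdh1, Cdh2 and Cdh13 overlap.

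The basal signal of Pcdh7 was present in both mice, but not to the same height. Within mouse 5, the basal mean exceeded the luminal mean by 3.65, and between the other mice, basal mouse 3 against luminal mouse 4, by 2.57. The Sca1-high minus basal differences were -3.68 within mouse 5 and -2.66 between mice 3 and 1. The LY6D+ basal arrays, with endothelial means of 4.28 and 4.40, had Pcdh7 signals of 5.83 and 6.38. The LY6D- basal arrays, with endothelial means of 6.15 and 6.17, had 5.72 and 6.63, and the part of endothelial cells was not tested.

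Genes whose signal followed Pcdh7 over the 12 arrays were named by Pearson r, as a description. The arrays share mice and fall into gates, so r counts steps between gates as well as differences within them. The 5 highest were Lif, a cytokine of the interleukin-6 family (r = 0.923), Cdcp1, a transmembrane substrate of Src kinases (r = 0.918), the heme transporter Flvcr1 (r = 0.917), the mitochondrial ribosomal protein Mrpl21 (r = 0.914) and Plec, the cytolinker plectin that anchors keratin filaments at hemidesmosomes (r = 0.913). In all, 12 genes exceeded an r of 0.9. From basal to luminal to Sca1-high gate, Lif was 9.96 ± 1.18, 7.10 ± 0.33 and 6.78 ± 0.58, and Flvcr1 was 6.91 ± 0.44, 3.72 ± 0.26 and 4.35 ± 0.59. Plec, in the same order, was 6.18 ± 0.54, 5.17 ± 0.23 and 5.19 ± 0.05.

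Pcdh1 encodes a protocadherin known from the airway epithelium. Its signal was 4.10, 3.98, 4.21 and 4.46 on the luminal arrays (LY6D+ of mice 4 and 5, then LY6D-), 4.08, 3.70, 4.40 and 3.84 on the Sca1-high arrays (LY6D+ of mice 1 and 5, then LY6D-) and 4.33, 3.97, 4.44 and 4.17 on the basal arrays (LY6D+ of mice 3 and 5, then LY6D-). All 3 gates overlapped, and the order of their means (4.23 ± 0.21 basal, 4.19 ± 0.20 luminal, 4.01 ± 0.30 Sca1-high) lay within the spread. Basal and luminal means differed by 0.04 ± 0.20 (95% interval -0.42 to 0.50, adjusted p = 0.990, limma). The interval leaves room for a difference of up to 0.50 in size.

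Cdh3, or P-cadherin, is the classical cadherin of basal epithelial layers. Luminal arrays read 4.75 and 4.24 for LY6D+ cells of mice 4 and 5 and 4.42 and 4.09 for LY6D- cells, and Sca1-high arrays 5.32 and 4.31 for LY6D+ cells of mice 1 and 5 and 4.49 and 5.07 for LY6D- cells. Basal arrays read 6.58 and 6.88 for LY6D+ cells of mice 3 and 5 and 4.83 and 7.47 for LY6D- cells. The LY6D- basal array of mouse 3 was low, close to the luminal and Sca1-high arrays and below 2 of the 4 Sca1-high arrays, while the other 3 basal arrays were above all 8 arrays of the other gates.

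With all arrays, the basal mean of Cdh3 (6.44 ± 1.14) was 2.06 ± 0.51 above the luminal mean (4.38 ± 0.28), 4.18-fold, with a 95% interval of 0.92 to 3.21, and this did not pass the threshold (adjusted p = 0.174, limma). The Sca1-high mean (4.80 ± 0.48) stood at -1.64 ± 0.51 from the basal mean (adjusted p = 0.370, limma). Without the LY6D- basal array of mouse 3 both differences passed, at 2.72 (adjusted p = 0.0128, limma) and -2.31 (adjusted p = 0.0297, limma). Without both basal arrays and the LY6D- luminal array of mouse 5, the basal minus luminal difference was 1.25 (adjusted p = 0.589, limma). These 3 arrays stood apart from the rest, with medians of 3.76 to 3.79 against 3.90 to 3.99 and 17608 to 18028 genes above the lower quartile against 18555 or more. The highest values of Pcdh7, Cdh3 and Cdh1 were on the 2 basal ones. Within mouse 5 it was 3.01, and between mice 3 and 4 it was 1.12. That low array had an endothelial mean of 6.15 and the lowest basal epithelial mean of its gate, 7.62, while the LY6D- basal array of mouse 5 had an endothelial mean of 6.17 and the highest Cdh3 of all. Their part in the result was not tested.

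Luminal and Sca1-high arrays of Cdh3 overlapped and differed by 0.42 ± 0.51 (95% interval -0.73 to 1.57, adjusted p = 0.847, limma). The order of its gates was basal, Sca1-high, luminal, with the lower pair within its spread. The genes that followed Cdh3 most closely over the 12 arrays were Hk2, a hexokinase (r = 0.982), Mreg, melanoregulin (r = 0.959), and the sulfotransferase Sult5a1 (r = 0.955). Hk2 had the same low array: its basal signals were 7.57 and 8.34 on the LY6D+ arrays of mice 3 and 5 and 5.42 and 8.75 on the LY6D- arrays. Altogether 48 genes exceeded an r of 0.9 with Cdh3.

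Cdh1, or E-cadherin, was bright on every array, from 8.61 to 11.99. In the luminal gate it was 10.84 and 10.67 in LY6D+ cells of mice 4 and 5 and 8.94 and 9.98 in LY6D- cells. In the Sca1-high gate it was 10.57 and 8.61 in LY6D+ cells of mice 1 and 5 and 10.08 and 11.12 in LY6D- cells. In the basal gate it was 11.45 and 11.90 in LY6D+ cells of mice 3 and 5 and 10.54 and 11.99 in LY6D- cells. On 3 basal arrays it was above every array of the other gates, and the LY6D- basal array of mouse 3, the one with low Cdh3, lay among the arrays of the other gates.

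The basal mean of Cdh1 (11.47 ± 0.66) was 1.36 ± 0.50 above the luminal mean (10.11 ± 0.86), 2.57-fold, with a 95% interval of 0.25 to 2.48 (adjusted p = 0.392, limma). Sca1-high signal (10.09 ± 1.08) stood at -1.38 ± 0.50 from basal signal (adjusted p = 0.449, limma) and at -0.01 ± 0.50 from luminal signal (95% interval -1.13 to 1.10). No difference passed, and gates overlapped throughout. Within mouse 5 the basal minus luminal difference was 1.62, and between mice 3 and 4 it was 1.11.

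A dimmer probe set of Cdh1 gave another picture of the Sca1-high gate. It read 10.14 and 6.24 for LY6D+ cells of mice 1 and 5 and 6.41 and 10.59 for LY6D- cells there, a gate mean of 8.35 ± 2.34 against 9.53 ± 0.44 (luminal) and 10.70 ± 1.21 (basal). The arrays with the low readings, 6.24 and 6.41, were those with the higher endothelial marker means of the gate, 6.74 and 6.15, against 5.32 and 5.42 on the other 2, and the part of these cells was not tested. With the dimmer probe set the Sca1-high gate stood at -1.19 from the luminal (adjusted p = 0.786, limma) and -2.36 from the basal gate, neither called. The probe sets therefore placed the luminal and Sca1-high gates differently, by -0.01 and -1.19.

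**Figure D2:**
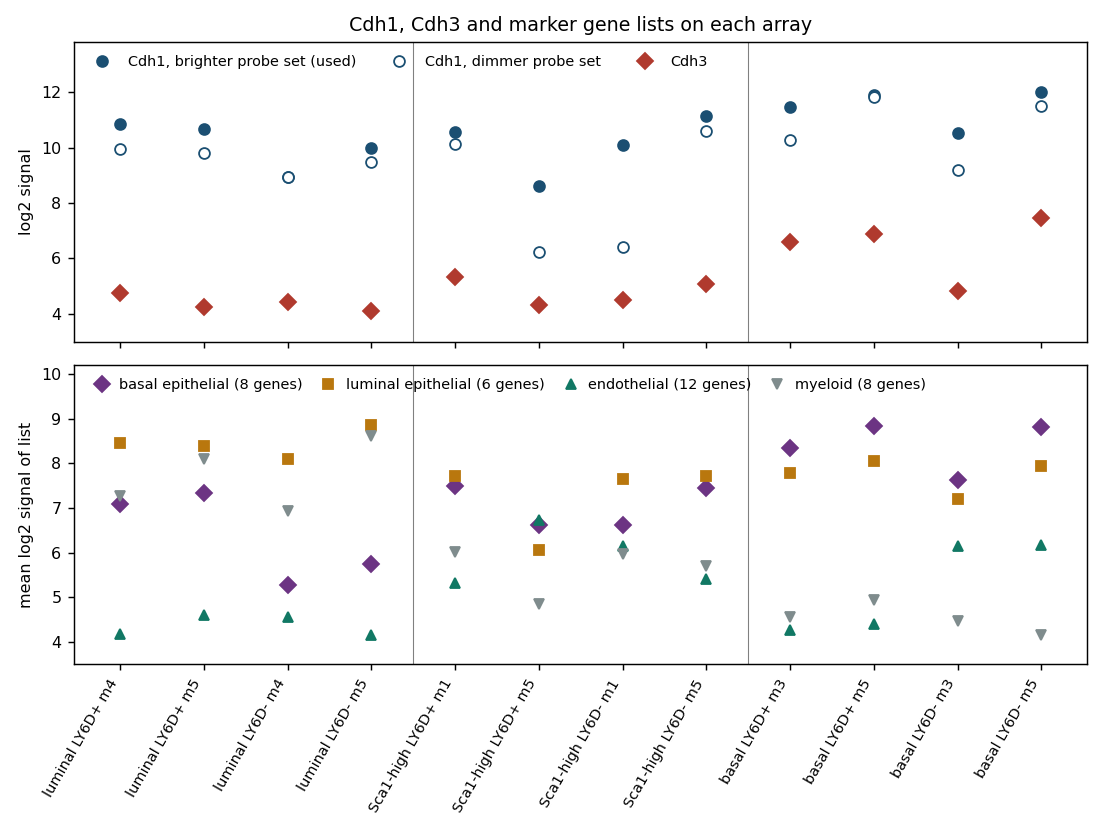
Upper panel, log2 signal of both Cdh1 probe sets and of Cdh3 on each of the 12 arrays (m, mouse); lower panel, mean log2 signal of 4 marker lists on the same arrays, with gates separated by vertical lines. The dimmer Cdh1 probe set falls to 6.24 and 6.41 on the Sca1-high arrays with the highest endothelial means, and Cdh3 is 4.83 on the LY6D- basal array of mouse 3 against 6.58 to 7.47 on the other basal arrays; heights of different probe sets are not comparable.

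Over the 12 arrays, Cdh1 was followed most closely by Anxa2, the membrane-binding annexin (r = 0.985), Ccdc86 (r = 0.947) and the tropomyosin Tpm1 (r = 0.944), with 13 genes over 0.9. Anxa2 had gate means of 9.60 ± 0.81 (basal), 8.13 ± 0.96 (luminal) and 8.18 ± 1.34 (Sca1-high). The genes Cdh3 and Cdh1 lie next to each other, with 0 protein-coding genes and 3 others between them in the RefSeq table of assembly GRCm38.p6. Over these arrays they correlated at r = 0.795, and Pcdh7 correlated with Cdh3 at r = 0.868 and with Cdh1 at r = 0.708, as a description over arrays that share mice and gates.

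Cdh2, or N-cadherin, is the cadherin whose gain in place of E-cadherin marks epithelial to mesenchymal transition. Its signal stayed near the lower quartile of the table, from 3.06 to 3.62 over the 12 arrays, with gate means of 3.37 ± 0.20 (luminal), 3.36 ± 0.07 (Sca1-high) and 3.30 ± 0.16 (basal). Luminal arrays were 3.42, 3.62, 3.29 and 3.14, Sca1-high arrays 3.39, 3.43, 3.35 and 3.26, and basal arrays 3.39, 3.34, 3.06 and 3.39, in the order given for Pcdh1. On this probe set the 3 gates overlapped, and basal and luminal means differed by -0.07 ± 0.16 (95% interval -0.44 to 0.30, adjusted p = 0.975, limma). On a dimmer probe set of Cdh2 the 4 basal arrays (2.26 to 2.65) lay below all 8 others (2.70 to 4.16). Only 3.52 (LY6D- luminal, mouse 5) and 4.16 (LY6D+ Sca1-high, mouse 5) exceeded 2.98, the lower quartile of the table. With this probe set the basal minus luminal difference was -0.50 (adjusted p = 0.743, limma) and the Sca1-high minus basal difference 0.68 (adjusted p = 0.514, limma), neither called.

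For Cdh13, or T-cadherin, the gates overlapped too. Its signal was 3.75, 3.45, 3.94 and 3.25 on the luminal arrays, 3.35, 4.04, 3.91 and 3.83 on the Sca1-high arrays and 4.14, 3.09, 4.31 and 3.83 on the basal arrays, in the same order. The gate means were 3.84 ± 0.54 (basal), 3.78 ± 0.30 (Sca1-high) and 3.60 ± 0.31 (luminal), an order within the spread. The basal minus luminal difference was 0.24 ± 0.29 (95% interval -0.42 to 0.90, adjusted p = 0.927, limma). In the basal gate both arrays of mouse 3 (4.14 and 4.31) were above both arrays of mouse 5 (3.09 and 3.83).

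Across the family, 2 of the 6 genes, Pcdh7 and Cdh3, had basal and luminal arrays that did not overlap, where 5.75% of all genes tested did the same. Basal and Sca1-high arrays did not overlap for 1 of 6, Pcdh7 (7.04% of all genes), and luminal and Sca1-high arrays overlapped for all 6 (6.04% of all genes did not overlap). Pcdh7 had been chosen for this and adds nothing to these counts. Of the 15 gate tests on the other 5 genes 0 passed an adjusted p of 0.05 in limma, and 4 had an unadjusted p under 0.05, those of Cdh1 and Cdh3 between the basal gate and each other gate. That unadjusted threshold was passed by 9.44% of all genes between basal and luminal and by 9.83% between Sca1-high and basal. Over all genes, 0.417% passed between basal and luminal, 0.139% between Sca1-high and luminal and 0.00993% between Sca1-high and basal. The 3 comparisons share arrays and are not independent.

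**Figure D3:**
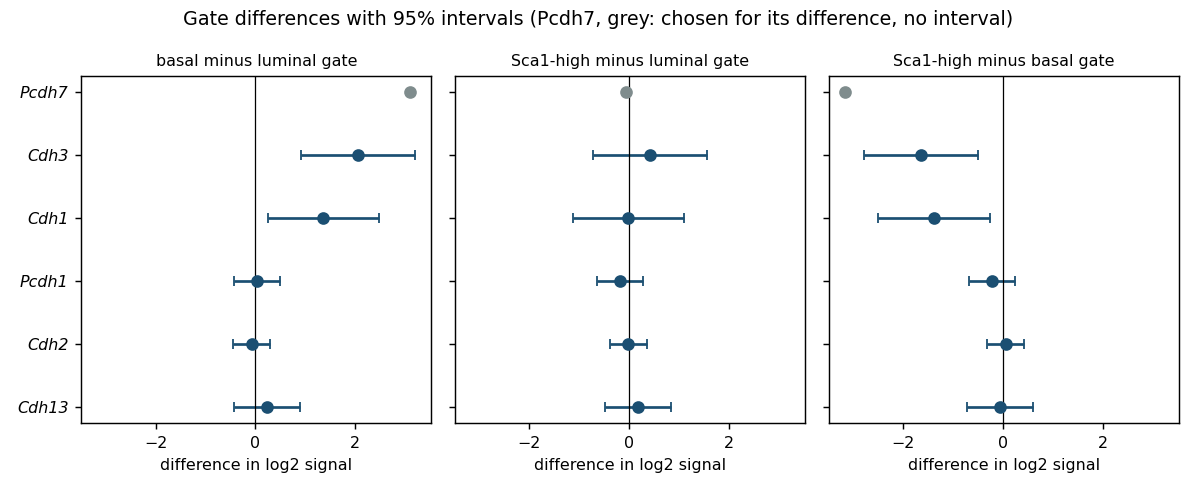
Differences in log2 signal between gates (horizontal axis) for the 6 genes, with 95% intervals from limma over 12 arrays; Pcdh7, chosen for its gate difference, is a grey point without an interval. Intervals of Cdh3 and Cdh1 against the basal gate exclude 0 before adjustment over 20135 genes (0.92 to 3.21 and 0.25 to 2.48 for basal minus luminal), while those of Pcdh1, Cdh2 and Cdh13 include it in all 3 comparisons.

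LY6D+ and LY6D- cells were compared within each gate, to ask whether the class that the series is about differs in cadherin expression. Of 24 tests on the 6 genes 0 passed in limma and 0 had an unadjusted p under 0.05. Over all genes, 0% passed in the luminal gate, 0% in the Sca1-high gate, 0.00993% in the basal gate and 0% over the 3 gates. For Pcdh7, LY6D+ minus LY6D- was -0.08 ± 0.38 among luminal, -0.28 ± 0.38 among Sca1-high and -0.06 ± 0.38 among basal arrays, and the classes overlapped in every gate. Over the 3 gates it was -0.14 ± 0.22 (95% interval -0.64 to 0.35), and LY6D+ was higher in 3 of 6 mouse and gate pairs. That interval leaves room for a difference of up to 0.64 in size. Without the mouse 5 library of Sca1-high cells labelled LY6D+, the Sca1-high difference of Pcdh7 was 0.04.

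Cdh1 had the widest LY6D differences of the family, and they ran in opposite directions. In the luminal gate LY6D+ exceeded LY6D- cells by 1.30 ± 0.70, with 1.90 in mouse 4 and 0.70 in mouse 5, and the classes did not overlap. In the Sca1-high gate the difference was -1.01 ± 0.70, from 0.49 in mouse 1 and -2.51 in mouse 5, the mouse whose Ly6d transcript went against the labels. Without the mouse 5 library of Sca1-high cells labelled LY6D+ it was -0.04. Sca1-high minus luminal, these differences of Cdh1 themselves differed by -2.31 ± 0.99 (unadjusted p = 0.0440, adjusted p = 1.00, limma), the 1 of 18 such tests on the 6 genes with an unadjusted p under 0.05, where 2.36% to 2.92% of all genes had one. With the dimmer probe set of Cdh1 it was -0.97. Of the 18, 0 passed after adjustment, as for 0% of all genes in each of the 3 comparisons of gates. In the same luminal arrays the mean of the basal epithelial markers was 7.10 and 7.33 in LY6D+ cells against 5.28 and 5.75 in LY6D- cells, and its part in the Cdh1 difference was not tested.

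For Cdh3 the basal difference of 0.59 ± 0.72 came from 1.76 in mouse 3 and -0.58 in mouse 5. It was -0.73 without the LY6D- basal array of mouse 3 and 1.91 without that of mouse 5. The luminal and Sca1-high differences of Cdh3 were 0.24 and 0.03, and LY6D+ was higher in 4 of 6 pairs. So the direction in the basal gate rested on which mouse was counted.

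Pcdh1 was lower in LY6D+ cells in 6 of 6 pairs, by 0.10 to 0.48 log2 units. Over the 3 gates the difference was -0.23 ± 0.17 (95% interval -0.60 to 0.15, unadjusted p = 0.209, adjusted p = 1.00, limma). That fit held no term for mouse, so its error and p-value do not use the pairing. All 6 pairs ran the same way for 2.84% of all genes tested. Cdh2 was higher in LY6D+ cells in 5 of 6 pairs (0.18 ± 0.13 over the gates) and Cdh13 in 2 of 6 (-0.21 ± 0.24). This did not hold on the dimmer probe set of Cdh2. Its difference was 0.06 over the gates and -0.28 in the luminal gate, and its LY6D classes overlapped in every gate. Between 2 arrays and 2, non-overlap was common on the brightest probe sets. The LY6D classes did not overlap for 3 of 6 genes in the luminal gate (Pcdh1, Cdh1 and Cdh2), where 27.8% of all genes did the same. They did not overlap for 1 of 6 in the Sca1-high gate (Cdh2, against 29% of all genes) and for 0 of 6 in the basal gate (24.6%).

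**Figure D4:**
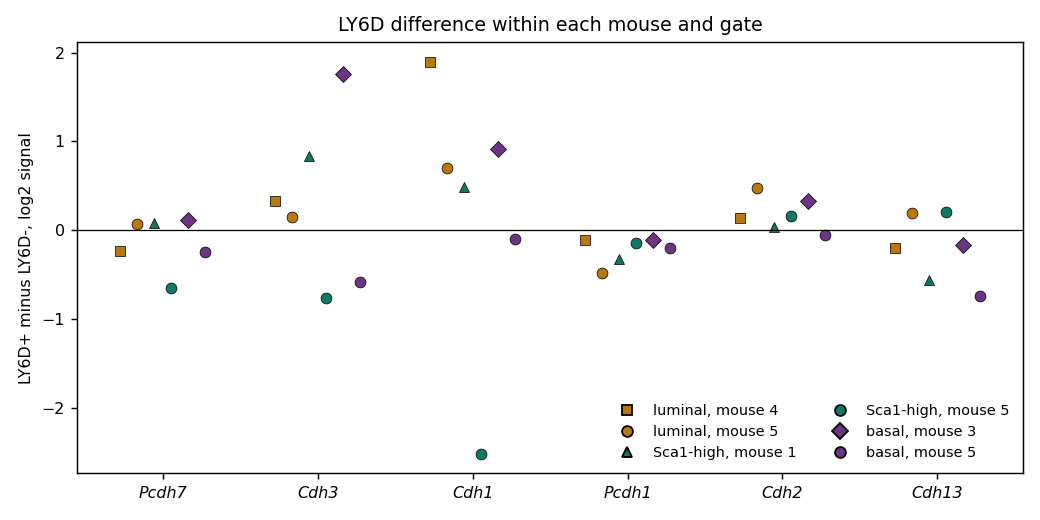
LY6D+ minus LY6D- difference in log2 signal (vertical axis) for each of the 6 genes in each of the 6 mouse and gate pairs; colour gives the gate and shape the mouse. Pcdh1 lies below 0 in 6 of 6 pairs, Pcdh7 is split 3 to 3, and the Sca1-high pair of mouse 5 sets Cdh1 at -2.51.

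The partners of these proteins were read from 9 lists, chosen with earlier results of these data known, of which 66 of 74 genes were tested. Of their 198 gate tests 0 passed in limma, and 11 of 66 had an unadjusted p under 0.05 between basal and luminal, 7 between Sca1-high and luminal and 13 between Sca1-high and basal. Of all genes tested, 9.44%, 8.41% and 9.83% had one in these comparisons, and nothing particular to the lists was tested. The medians of all genes tested were -0.03, 0.07 and 0.11 in these 3 comparisons, so that small list medians are to be read against them. In the same order, 45.8%, 59.8% and 64.2% of all genes tested had a positive difference. The counts of positive and negative differences below are to be read against these shares. Centring each array on its median changed the sign of 1 of the 27 list medians, that of the Cdh13 ligand and receptors in Sca1-high minus basal (0.01 to -0.10).

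The catenins and actin linkers, through which classical cadherins hold the cytoskeleton, had a positive basal minus luminal difference for 10 of 12 genes (median 0.55) and a negative Sca1-high minus basal difference for 8 of 12 (median -0.75). The largest was Ctnna1, alpha-catenin. It was 8.84, 7.93, 7.29 and 7.82 on the luminal, 7.14, 7.44, 7.99 and 8.69 on the Sca1-high and 9.48, 10.04, 9.00 and 9.88 on the basal arrays, in the order given for Pcdh1. All 4 basal arrays were above the 8 others. The basal mean of 9.60 ± 0.46 exceeded the luminal mean by 1.63 ± 0.31 (adjusted p = 0.0723, limma) and the Sca1-high mean stood at -1.78 ± 0.31 from it (adjusted p = 0.166, limma). Without the LY6D- basal array of mouse 3 both passed, at 1.85 and -2.00. Vinculin, Vcl, an actin linker recruited to junctions under tension, was next between basal and luminal at 1.18 ± 0.54 (adjusted p = 0.545, limma), and Lima1, which stabilises actin filaments at junctions, between Sca1-high and basal at -1.53 ± 0.44 (adjusted p = 0.350, limma).

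Nectins are immunoglobulin-like adhesion proteins that assemble beside cadherins in adherens junctions. Basal minus luminal differences were positive for 4 of 5 (median 0.52) and Sca1-high minus basal differences negative for 4 of 5 (median -0.41). Nectin1 read from 6.71 on the LY6D- array of mouse 3 to 9.47 on that of mouse 5 in the basal gate, against 5.42 to 6.28 on the luminal and 5.53 to 6.83 on the Sca1-high arrays. Its basal minus luminal difference was 1.84 ± 0.55 (adjusted p = 0.279, limma), and 2.53 without the LY6D- basal array of mouse 3, which passed, as did its Sca1-high minus basal difference of -2.42 there. Nectin3 was next in basal minus luminal at 0.78 ± 0.33, and Nectin2 in Sca1-high minus basal at -1.55 ± 0.40 (adjusted p = 0.299, limma).

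Repressors of Cdh1 transcription were read alongside. Of 6 tested, 2 were positive in basal minus luminal (median -0.17). The largest was Snai2, the zinc finger repressor Slug, at 2.16 ± 0.66, from gate means of 8.27 ± 1.36 (basal) and 6.11 ± 1.16 (luminal), with an adjusted p = 0.291 in limma, followed by Snai1 at 0.38 ± 0.29. Snai2 and Cdh1 thus both had their highest gate mean in the basal gate, although neither difference passed. On the LY6D- basal array of mouse 3 Snai2 was 6.41, against 8.19 to 9.61 on the other 3 basal arrays.

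Transcription and splicing factors that uphold the epithelial state were positive in basal minus luminal for 6 of 9 (median 0.33) and negative in Sca1-high minus basal for 7 of 9 (median -0.78). Ovol1, a zinc finger repressor of mesenchymal genes, was 1.44 ± 0.54 higher in the basal than in the luminal mean without passing (adjusted p = 0.412, limma), and Klf4 1.01 ± 0.58 (adjusted p = 0.697, limma). In Sca1-high minus basal, Klf4 stood at -1.56 ± 0.58, and with mouse as a fixed block in limma it passed at -2.86, in a fit that raised the count over all genes from 2 to 80. It was not called with mouse as a random block. Among 4 genes for cadherin shedding and turnover, Numb, an endocytic adaptor, had a basal minus luminal difference of 1.32 ± 0.56 and Ncstn, a subunit of gamma-secretase, one of -0.65 ± 0.43, and neither passed.

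Among the partners of single members none passed. Of the 4 genes listed for Pcdh7, Set was 6.25 ± 0.03 (basal) and 6.31 ± 0.18 (luminal). The largest differences were in the phosphatase subunits Ppp2ca (1.03 ± 0.45, adjusted p = 0.515, limma) and Ppp2r1a (0.87 ± 0.58, adjusted p = 0.767, limma). Ppp2ca read 5.93 and 6.89 on the LY6D+ luminal arrays but 8.85 and 9.71 on the LY6D- luminal arrays. Its basal arrays read 8.52 to 9.17, so only the LY6D+ luminal arrays lay below them. Of the ligand and receptors listed for Cdh13, adiponectin (Adipoq) was 3.10 ± 0.20 (basal) and 3.20 ± 0.24 (luminal). The receptor Adipor1 had a Sca1-high minus basal difference of -0.81 ± 0.30 (adjusted p = 0.452, limma).

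Among the 9 other non-clustered protocadherins tested, the median basal minus luminal difference was 0.06. The largest were in Pcdh18 (0.70 ± 0.33, adjusted p = 0.552, limma) and Pcdh9 (-0.50 ± 0.36, adjusted p = 0.803, limma). Among 14 other cadherins the median was -0.11. The largest differences were those of Cdh5, the endothelial VE-cadherin, with gate means of 9.06 ± 2.15 (Sca1-high), 7.31 ± 2.68 (basal) and 4.93 ± 0.57 (luminal), and its Sca1-high minus luminal difference was 4.12 ± 0.92 (adjusted p = 0.194, limma). It read 4.26 and 5.88 on the LY6D+ basal arrays of mice 3 and 5 and 9.78 and 9.33 on the LY6D- basal arrays, and on the Sca1-high arrays 7.40, 10.80, 11.02 and 7.01, in the order given for Pcdh1. Pecam1, which encodes the CD31 used to exclude endothelial cells, was 8.62 and 8.19 on the LY6D- basal arrays and 7.18 and 5.70 on the LY6D+ ones. In the basal gate Cdh5 was thus high on the arrays with high Pecam1, in a sort that excluded CD31, and the part of endothelial cells in it was not tested.

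Pcdh1, Cdh2 and Cdh13 had few close followers. The highest r was 0.910 for Pcdh1 (Ciao1, then Btg1 at 0.887 and Selenos at 0.869), 0.883 for Cdh2 (Omg, then Gm5174 at 0.880 and Pisd-ps3 at 0.859) and 0.895 for Cdh13 (Usp17le, then M1ap at 0.884 and Theg at 0.881). Only 1 gene exceeded an r of 0.9 with Pcdh1 and 0 did with Cdh2 or Cdh13, against 12 for Pcdh7, 13 for Cdh1 and 48 for Cdh3. The values behind these r span 0.75 (Pcdh1), 0.55 (Cdh2) and 1.22 (Cdh13) log2 units.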

How the data were processed

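The NuGEN Ovation V2 kit was used to amplify and label the RNA, per the labels' protocols. The table deposited by the authors holds a log2 signal for each probe set, made with RMA and oligo, per the submitters' processing notes, with version and genome build not given in the sources used here. They ran from 0.695 to 14.3 with array medians of 3.76 to 3.99 and were used as deposited. No scanner files were used, so detection calls could not be made, and the number of arrays limits the precision. Of 41345 probe sets, 23521 had 1 symbol, 1814 several and 16010 none listed; entrez identifiers of 23328 matched RefSeq and changed 0 symbols.

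The brightest probe set stood for a gene. Genes that exceeded 2.98, the lower quartile of all values, on at least 2 arrays were tested with limma 3.58.1 in R 4.3.3: a mean per group over 12 arrays, eBayes with default settings (residual degrees of freedom 6, prior 3.28), and p-values adjusted by Benjamini-Hochberg across 20135 genes in each contrast, called at 0.05. Gate contrasts average the LY6D+ and LY6D- groups. All tests are two-sided. The fit was tested on simulated data with independent arrays, 50 genes per size of shift in the basal gate. Of genes shifted by 1, 2, 3 and 4 log2 units, 30%, 62%, 90% and 98% passed in basal minus luminal, with 5 false calls. Differences of 1 to 2 log2 units, and some larger ones, can therefore be missed in that contrast, where Cdh3 at 2.06 did not pass. The other contrasts were not simulated. Within a gate the LY6D contrasts have larger standard errors, for Pcdh7 0.38 against 0.27.

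Replicate numbers are mouse numbers, so LY6D+ and LY6D- samples of a gate are paired by animal. Deviations of paired samples from their group means had an r of 0.0220 (luminal), 0.149 (Sca1-high) and 0.407 (basal). Mouse entered as a fixed or a random block in alternatives. Other alternatives changed the scaling, filter, probe set rule, arrays and moderation.

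The members and lists were chosen with earlier results of these data known. Genes named besides members were the 5 (Pcdh7) or 3 most correlated over the arrays and, per list, up to 4 called genes or else the 2 with the largest difference; list members outside this rule (Set, Adipoq, Pecam1) and marker genes were chosen after their values were seen.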

Additional observations from a re-analysis of the deposited data

Results flagged for a closer look

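In each gate of 4 arrays, the gap between an extreme array and its neighbour was compared with the range of the gate, for all 6 genes and 3 gates (18 sets). Chance alone puts about 1 in 20 such sets past Dixon's 95% critical value. The set of Pcdh7 in the Sca1-high gate was past it: the library of mouse 5 labelled LY6D+ read 2.50, below the other 3 at 3.07 to 3.15 (ratio 0.880). All 4 values lie near or under 2.98, the lower quartile of the table. This is also the library with the lowest median correlation with other arrays and with Ly6d below that of its LY6D- pair. The set of Cdh2 in the basal gate was past it too: the LY6D- array of mouse 3 read 3.06, below the other 3 at 3.34 to 3.39 (ratio 0.844). The same array had the lowest basal Cdh3 (4.83) and Cdh1 (10.54).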

How the results depend on the processing

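Of 1154 tested values of the 6 genes, recomputed under 21 alternatives (12 of them leaving out 1 array), 2 crossed the threshold, both for Cdh3 without the LY6D- basal array of mouse 3 (2.72 for basal minus luminal, -2.31 for Sca1-high minus basal). Leaving out 1 array gave 1.40 to 2.72 for the first of these and -2.31 to -0.98 for the second. The sign changed in 95, of which 3 had a main difference over 0.5. With mouse as a fixed replicate block, which rests the gate comparison on mouse 5, Pcdh7 moved to 3.65 (basal minus luminal) and -3.68 (Sca1-high minus basal), and without both basal arrays and the LY6D- luminal array of mouse 5 the first was 2.62. Neither the fixed nor the random block changed a call of a member.

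Counts over all genes depended more on the setting than values of the 6 genes did. The main counts were 84 (basal against luminal), 28 (Sca1-high against luminal) and 2 (Sca1-high against basal). Leaving out 1 array gave 15 to 255, 13 to 165 and 2 to 133. The fixed block gave 104 for the second and 80 for the third, centring each array on its median 31 for the first and 17 for the second, the mean of probe sets 1 for the third, fitting only the groups compared 13 for the second and 1 for the third, and robust moderation with a trend 4 for the third. Without both basal arrays and the LY6D- luminal array of mouse 5 the first and second were 0. Signals of Pcdh7 outside the basal gate and of Cdh2 lay near 2.98, and no detection call was made.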
